A study of Mus musculus with 14 samples.

Results

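Transcripts of the nonmuscle myosins and of actin regulators of the dendritic spine were followed across hippocampi that lacked the estrogen receptor GPR30 in all cells, in astrocytes or in neurons. The set holds 10 gene symbols: the myosin II heavy chain genes Myh9, Myh10 and Myh14, the light chain genes Myl6 and Myl12b, the drebrin gene Dbn1, the cofilin gene Cfl1, the tropomodulin genes Tmod1 and Tmod2, and the class V myosin gene Myo5a. These symbols match 11 of the 55450 gene models in the table, since Myl12b has a second model. A total of 10 of the 11 models passed the filter on low values, an FPKM (read fragments scaled to transcript length and library size) of 0.5 or more in 3 or more libraries, as did 18059 models in all. The members were chosen by measured values: Myh10 was lower in Δ3102 than in WT mice, and Tmod1 was lower in NG-KO than in WT mice. In those 2 comparisons the values of all members are therefore given as a description, with no test.

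The libraries were made from hippocampal poly(A) RNA of C57BL/6J female mice at 10 weeks of age, with 1 library per mouse. The groups were 3 Δ3102 mice, a global GPR30 knockout made with CRISPR/Cas9, 4 AG-KO mice (GPR30 fl/fl;GFAP-Cre, astrocytes), 4 NG-KO mice (GPR30 fl/fl;NSE-Cre, neurons, with Cre under the neuron-specific enolase promoter) and 3 WT mice. WT mice were the only controls, floxed or Cre control mice were not analysed here, and an effect of the Cre transgene cannot be told apart from the loss of GPR30. The question for these genes was whether the level of the spine motor and actin machinery differed with the cells that lacked GPR30. The libraries held 44527024 to 62669865 counts. Gper1, which encodes GPR30, had 0.0124 to 0.145 FPKM in Δ3102 hippocampi, 0.540 to 1.38 FPKM in AG-KO hippocampi, 0.975 to 1.41 FPKM in NG-KO hippocampi and 0.797 to 3.05 FPKM in WT hippocampi, so that in whole tissue only the Δ3102 libraries lay apart from the WT libraries. Summed neuron markers were similar (987 to 1116 FPKM in Δ3102, 997 to 1063 FPKM in AG-KO, 973 to 1096 FPKM in NG-KO and 958 to 1027 FPKM in WT hippocampi), and some libraries of every genotype also held liver, skeletal muscle or sperm cell transcripts. The summed skeletal muscle markers reached 530 FPKM in Δ3102 mice, 197 FPKM in AG-KO mice, 168 FPKM in NG-KO mice and 400.2 FPKM in WT mice.

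Dendritic spines are small protrusions that receive excitatory input, and their shape rests on filaments of actin. Nonmuscle myosin II is a hexamer of heavy chains with essential and regulatory light chains that pulls on these filaments, and Myh10 encodes the heavy chain of its IIB form, the form best known from neurons. Drebrin binds along actin filaments in spines, cofilin severs them, tropomodulins cap their slow-growing ends, and myosin Va carries membrane cargo along them.

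The promoters of Myh10 and Tmod1 are shown because these genes gave the differences that the set was built on. RefSeq windows on GRCm38.p6, each of 300 bases from 250 before to 50 after an annotated start, were found for all 10 symbols, 12 windows in all. Capitals mark CCAAT (or its reverse complement ATTGG) and GGGCGG (or CCGCCC), motifs found in many mammalian promoters. The Myh10 window lies on chromosome 11 on the plus strand (chr11:68691665-68691964) and the Tmod1 window on chromosome 4 on the plus strand (chr4:46038972-46039271).
Myh10: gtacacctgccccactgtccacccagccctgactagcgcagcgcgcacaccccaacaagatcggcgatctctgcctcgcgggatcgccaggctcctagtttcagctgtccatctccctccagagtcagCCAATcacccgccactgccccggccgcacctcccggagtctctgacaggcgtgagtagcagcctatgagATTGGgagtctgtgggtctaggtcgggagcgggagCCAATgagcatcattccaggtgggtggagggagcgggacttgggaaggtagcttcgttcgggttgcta
Tmod1: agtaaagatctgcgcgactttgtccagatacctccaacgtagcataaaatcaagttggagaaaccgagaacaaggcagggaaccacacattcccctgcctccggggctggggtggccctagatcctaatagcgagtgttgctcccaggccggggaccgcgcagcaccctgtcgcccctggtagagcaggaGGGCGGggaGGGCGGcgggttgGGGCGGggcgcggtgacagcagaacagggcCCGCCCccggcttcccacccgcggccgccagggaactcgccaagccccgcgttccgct

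The Myh10 window held 3 matches to the first motif (the CCAAT box) and 0 to the second (the GC box), whereas the Tmod1 window held 0 matches to the CCAAT box and 4 to the GC box. The CCAAT box occurred in 37.4% of all 32851 promoter windows on either strand and in 6 of the 12 windows of the members, and the GC box in 35.7% of all windows and in 8 of the 12. The cAMP response element TGACGTCA occurred in 1.79% of all windows and in 1 window of the members, a start of Myl6. The shorter TGACG, which the full element contains, occurred in 20.8% of all windows and in 2 windows of the members, 1 of Myl6 and 1 of Tmod2. These matches describe letters in the windows and are not binding sites.

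Myh10 was lowest in Δ3102 mice. Its level was 13.9, 13.9 and 12.9 FPKM in Δ3102 hippocampi, 27.6, 22.9, 24.0 and 23.1 FPKM in AG-KO hippocampi, 23.4, 25.5, 24.7 and 24.8 FPKM in NG-KO hippocampi, and 23.1, 23.7 and 23.9 FPKM in WT hippocampi. Every Δ3102 hippocampus lay below every other hippocampus, while the AG-KO, NG-KO and WT ranges overlapped. The mean in Δ3102 mice was 13.6 ± 0.579 FPKM, against 23.5 ± 0.432 FPKM in WT mice (SD, n = 3 each), a fold of 0.578 and a log2 fold change of -0.79 (SE 0.069) on the counts. Whether fewer cells carried Myh10 or each cell carried less of it cannot be told apart in whole tissue, for this or any other member.

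In the Δ3102 against WT comparison, 0.0111% of all tested genes passed an adjusted p under 0.05, and nothing is read from this for Myh10, which was chosen there. The comparison of AG-KO with NG-KO mice shares no library with the choosing comparison. There Myh10 differed by a log2 fold change of 0.0046 (SE 0.059, edgeR adjusted p = 0.982), less than the spread between mice. Against Δ3102 mice, Myh10 was higher in AG-KO mice by 0.87 (SE 0.066, edgeR adjusted p = 0.000124) and in NG-KO mice by 0.87 (SE 0.066, edgeR adjusted p = 3.3e-05), with no overlap, but both reuse the Δ3102 libraries by which Myh10 was chosen. The AG-KO comparison with WT mice, which reuses the WT libraries, gave 0.08 (SE 0.064, edgeR adjusted p = 0.595).

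**Figure D1:**
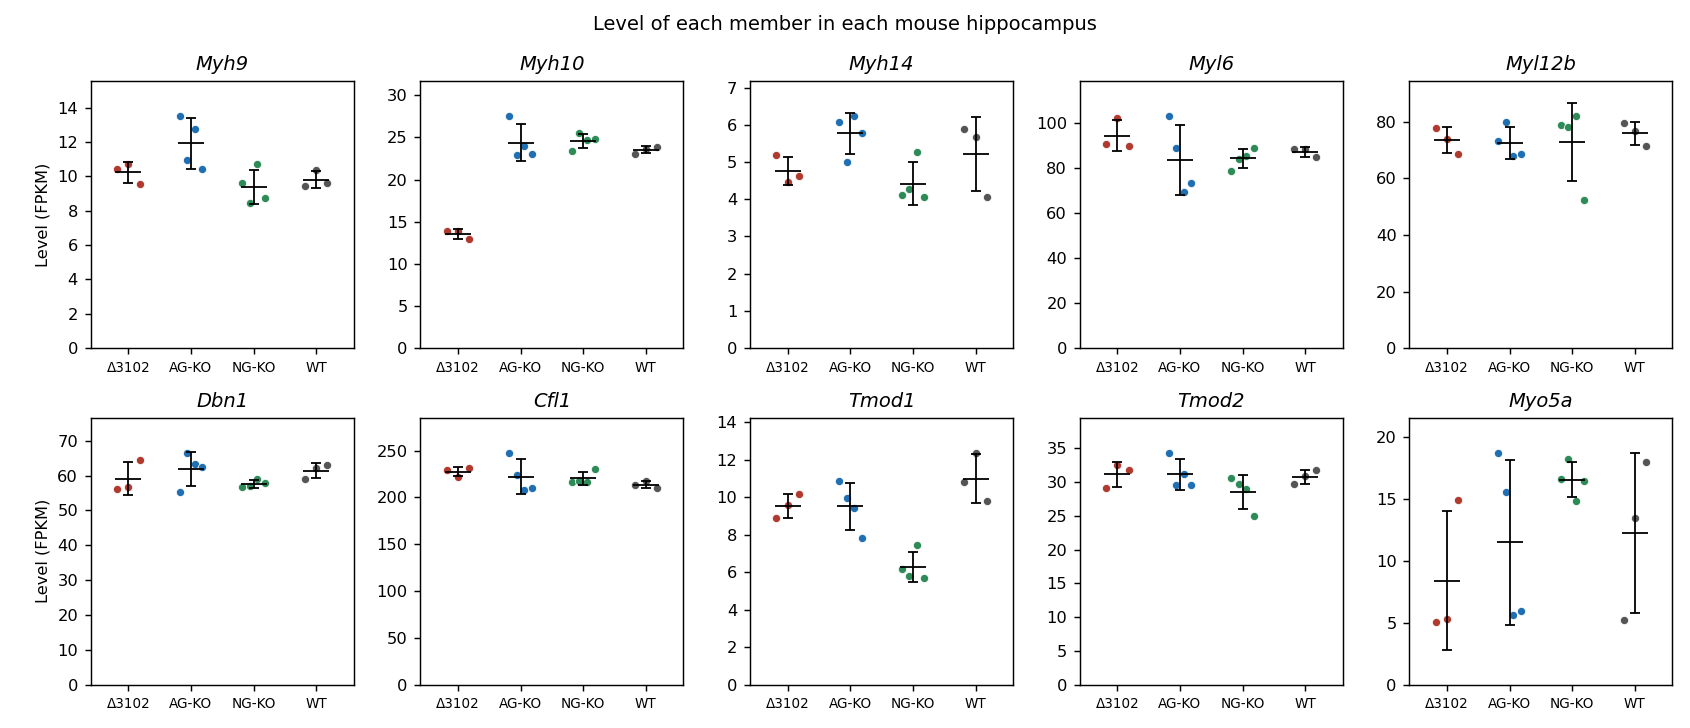
Level of each of the 10 members (FPKM, linear axis from 0) in each hippocampus of Δ3102, AG-KO, NG-KO and WT mice, with 1 point per mouse and the mean ± SD in black. Myh10 lies at 12.9 to 13.9 FPKM in Δ3102 mice and at 22.9 FPKM or more elsewhere, Tmod1 is lowest in NG-KO mice at 5.67 to 7.44 FPKM, and Myo5a splits within 3 of the 4 genotypes.

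Genes next to Myh10 on chromosome 11 were read in the same comparison. None of the 5 tested genes on either side passed the test in Δ3102 against WT mice, and their edgeR adjusted p was 0.9997. The nearest, Ndel1, which encodes a dynein regulator, had a log2 fold change of 0.11 (SE 0.080).

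Myh9, the heavy chain gene of myosin IIA, which is abundant in vessel cells, was highest in AG-KO mice, without passing the test over all genes. It had 10.4, 10.7 and 9.56 FPKM in Δ3102 hippocampi, 13.5, 10.9, 12.8 and 10.4 FPKM in AG-KO hippocampi, 9.64, 8.45, 10.7 and 8.76 FPKM in NG-KO hippocampi, and 9.42, 10.4 and 9.62 FPKM in WT hippocampi. The lowest AG-KO hippocampus lay just above the highest WT hippocampus, and the AG-KO and NG-KO ranges overlapped. Its log2 fold change was 0.31 (SE 0.10) in AG-KO against WT mice (edgeR adjusted p = 0.220) and 0.36 (SE 0.096) in AG-KO against NG-KO mice (edgeR adjusted p = 0.153). DESeq2 gave an adjusted p of 0.0420 for AG-KO against NG-KO mice, where it passed 2.38% of all tested genes, against 0.111% in edgeR. It was 1 of 22 alternatives for this comparison, and under the other 21 Myh9 did not pass. Against Δ3102 mice, AG-KO mice differed by 0.25 (SE 0.10, edgeR adjusted p = 0.445).

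Summed endothelial markers (4 of 4 tested) ranged from 27.3 to 40.1 FPKM in AG-KO mice, above the 22.1 to 25.8 FPKM in NG-KO mice, and overlapped the 26.8 to 34.0 FPKM in WT mice. Summed astrocyte markers (5 of 5 tested) ranged from 177 to 204 FPKM in AG-KO mice, from 129 to 171 FPKM in NG-KO mice and from 178 to 196 FPKM in WT mice. Both sums were higher in AG-KO than in NG-KO mice, as Myh9 was on average. Within AG-KO mice, replicate 1 had the most Myh9 in FPKM, with the lowest endothelial sum (27.3 FPKM) and the highest astrocyte sum (204 FPKM). In log2 counts scaled to library size, replicate 3 was marginally higher (7.597, against 7.591 in replicate 1), with an endothelial sum of 35.4 FPKM. Replicate 4 had the least Myh9, with the highest endothelial sum (40.1 FPKM). Sums of mural cell (vessel wall) markers overlapped between AG-KO (24.6 to 39.5 FPKM) and NG-KO mice (27.5 to 29.9 FPKM). The part of these markers in the Myh9 values was not tested.

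Myh14, the heavy chain gene of myosin IIC, was the least abundant heavy chain in every group, at means of 4.76 ± 0.374 FPKM in the 3 Δ3102 mice, 5.77 ± 0.548 FPKM in the 4 AG-KO mice, 4.42 ± 0.572 FPKM in the 4 NG-KO mice and 5.21 ± 0.999 FPKM in the 3 WT mice (mean ± SD). The ranges of all 4 genotypes overlapped. Its log2 fold change in AG-KO against NG-KO mice was 0.40 (SE 0.13, edgeR adjusted p = 0.223), with overlapping ranges.

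The 3 heavy chain genes code for related proteins, and their mix was described as shares of their summed FPKM. Over the aligned coding bases of the GENCODE vM21 transcripts, Myh10 matched Myh9 at 75.4% and Myh14 at 70.3%. The summed level was 28.6 ± 1.29 FPKM in the 3 Δ3102 mice, 42.1 ± 3.88 FPKM in the 4 AG-KO mice, 38.4 ± 1.57 FPKM in the 4 NG-KO mice and 38.6 ± 1.10 FPKM in the 3 WT mice (mean ± SD). Myh10 held 47.5% ± 0.298 of that sum in Δ3102 mice, 58.0% ± 1.46 in AG-KO mice, 64.1% ± 2.75 in NG-KO mice and 61.1% ± 2.16 in WT mice. Myh10 was thus the largest of the 3 in every genotype, and its share was lowest in the mice in which its own level was lowest.

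The share was tested where its choosing libraries were not used. Myh10 held 58.4%, 59.0%, 55.8% and 58.8% of the heavy chain sum in AG-KO hippocampi, against 63.03%, 66.7%, 60.7% and 65.9% in NG-KO hippocampi. The ranges did not overlap, with a difference of -6.11 percentage points and a two-sided exact permutation p of 0.0286, the smallest that 4 against 4 mice allow. Adjusted over the 4 share comparisons that used no choosing library (the 3 heavy chain shares here and the Tmod1 share in AG-KO against Δ3102 mice), this p was 0.0571, above the threshold of 0.05. The Myh10 level itself was nearly equal in these genotypes, and the mean shares of Myh9 (28.3% in AG-KO against 24.4% in NG-KO mice) and Myh14 (13.7% in AG-KO against 11.5% in NG-KO mice) were both larger in AG-KO mice, with adjusted exact permutation p of 0.0571 for Myh9 and 0.114 for Myh14.

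**Figure D2:**
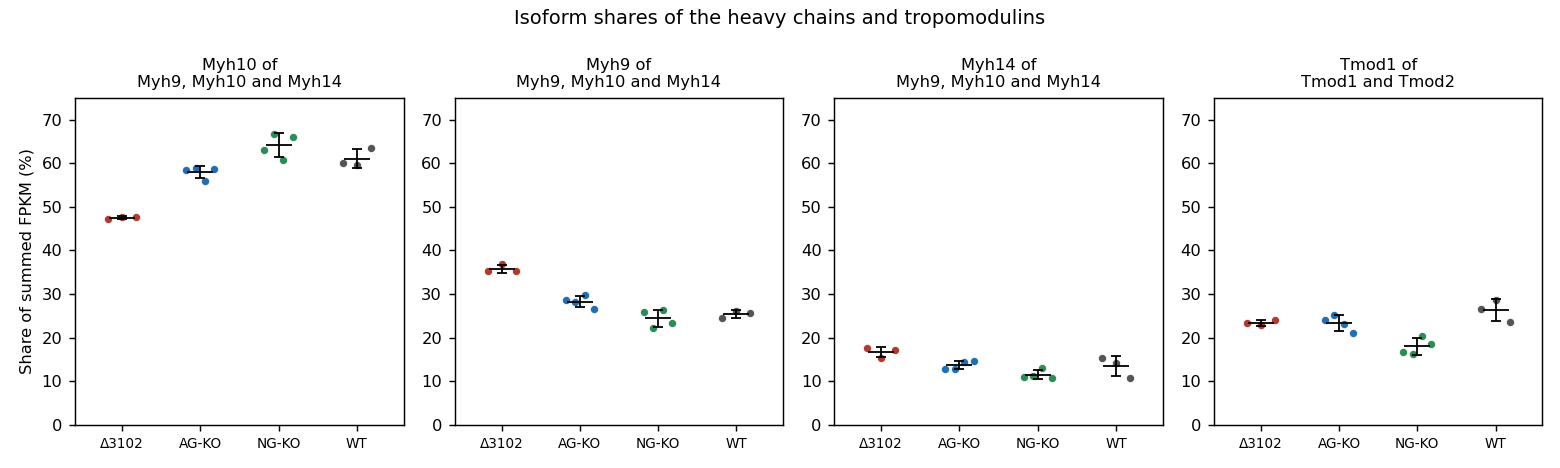
Share of summed FPKM (%) held by Myh10, Myh9 and Myh14 among the 3 heavy chain genes and by Tmod1 among Tmod1 and Tmod2, with 1 point per mouse and the mean ± SD in black. The Myh10 share is 55.8% to 59.0% in AG-KO mice and 60.7% to 66.7% in NG-KO mice, and the Tmod1 share is lowest in NG-KO mice.

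The light chain genes were far more abundant than the heavy chain genes in FPKM. Myl6 encodes the essential light chain, which is shared with smooth muscle myosin. It averaged 94.1 ± 6.88 FPKM in the 3 Δ3102 mice, 83.4 ± 15.5 FPKM in the 4 AG-KO mice, 84.1 ± 4.14 FPKM in the 4 NG-KO mice and 87.0 ± 2.17 FPKM in the 3 WT mice (mean ± SD). All NG-KO hippocampi lay below all Δ3102 hippocampi, with a log2 fold change of -0.16 (SE 0.10, edgeR adjusted p = 0.922), and AG-KO hippocampi ran from 69.0 to 103 FPKM.

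Myl12b, a regulatory light chain gene, was divided between gene models in 1 library. The main model held 78.0, 74.0 and 68.8 FPKM in Δ3102 hippocampi, 73.2, 80.0, 67.8 and 68.6 FPKM in AG-KO hippocampi, 78.8, 78.2, 82.1 and 52.4 FPKM in NG-KO hippocampi, and 79.5, 76.8 and 71.4 FPKM in WT hippocampi. The last NG-KO hippocampus stood below all the others. In that library the second model held 41.1 FPKM (2678 counts), in AG-KO replicate 4 it held 0.458 FPKM (35 counts), and in the other 12 libraries it was listed at 0.0001 FPKM, the floor of the table. Summed over both models, NG-KO replicate 4 reached 93.6 FPKM. Each FPKM is scaled to the length of its own model, so this sum does not rank the libraries. In counts not scaled to library size, NG-KO replicate 4 held 7871 for the main model beside the 2678 for the second. The main model held 12935 to 13917 counts in the other NG-KO libraries.

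The annotation and the sequence of the neighbouring gene Myl12a bear on these values. The second model lies on chromosome 17 from 70974119 to 71002208 on the minus strand of GRCm38 and spans Myl12b and Myl12a. In GENCODE vM21 it has 1201 exon bases, of which 739 are also exon bases of Myl12b and 462 of Myl12a, so none is its own. The coding sequences of Myl12b and Myl12a, 516 bases each, are identical at 96.5% of positions. The stretch of 60 coding bases with the most differences is shown from both genes (coding bases 145 to 204, chromosome 17, minus strand, across 1 intron in each gene), with the 9 differing bases in capitals.
Myl12b: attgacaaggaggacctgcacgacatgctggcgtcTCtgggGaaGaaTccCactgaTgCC
Myl12a: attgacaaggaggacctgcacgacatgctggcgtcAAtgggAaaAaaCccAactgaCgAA

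Reads from either gene could be counted for more than 1 of these models, and the Myl12b values are uncertain for that reason. Myl12b did not pass the test in any comparison that was tested. Its log2 fold change in AG-KO against NG-KO mice was 0.0051 (SE 0.12, edgeR adjusted p = 0.989) for the main model and -0.078 (SE 0.073, edgeR adjusted p = 0.674) with both models summed, an alternative chosen after the data were seen.

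Dbn1, the drebrin gene, was held within a narrow range. It had 56.2, 56.6 and 64.5 FPKM in Δ3102 hippocampi, 55.2, 66.6, 63.2 and 62.4 FPKM in AG-KO hippocampi, 56.7, 56.95, 59.1 and 57.7 FPKM in NG-KO hippocampi, and 59.0, 62.0 and 63.1 FPKM in WT hippocampi. All 4 groups overlapped one another. Its log2 fold change was 0.044 (SE 0.076, edgeR adjusted p = 0.840) in AG-KO against WT mice and 0.12 (SE 0.070, edgeR adjusted p = 0.472) in AG-KO against NG-KO mice.

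Cfl1, the gene of the nonmuscle cofilin, was the most abundant member, at 228 ± 5.10 FPKM in the 3 Δ3102 mice, 222 ± 18.6 FPKM in the 4 AG-KO mice, 220 ± 7.00 FPKM in the 4 NG-KO mice and 213 ± 3.74 FPKM in the 3 WT mice (mean ± SD). It was also the steadiest member. Its SD within genotypes was 0.050 on the log2 scale, lower than in all but 2.3% of the 1000 tested genes nearest to it in level, against a median SD of 0.30 over all tested genes. For Myh10 that SD was 0.069. The log2 fold change of Cfl1 in AG-KO against WT mice was 0.086 (SE 0.054, edgeR adjusted p = 0.481).

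Tmod1 was lowest in NG-KO mice. It had 8.86, 9.60 and 10.1 FPKM in Δ3102 hippocampi, 10.8, 9.94, 9.40 and 7.85 FPKM in AG-KO hippocampi, 6.17, 5.79, 7.44 and 5.67 FPKM in NG-KO hippocampi, and 10.8, 12.4 and 9.81 FPKM in WT hippocampi. Every NG-KO hippocampus lay below every other hippocampus, and the gap to AG-KO replicate 4 was small. The mean was 6.27 ± 0.811 FPKM in NG-KO mice (SD, n = 4), against 10.99 ± 1.29 FPKM in WT mice (SD, n = 3), a fold of 0.575 and a log2 fold change of -0.80 (SE 0.12) on the counts. In that comparison 0.072% of all tested genes passed an adjusted p under 0.05, and nothing is read from this for Tmod1, which was chosen there.

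The comparison of AG-KO with Δ3102 mice shares no library with the one that chose Tmod1. There its log2 fold change was 0.019 (SE 0.12, edgeR adjusted p = 0.972), less than the spread between mice. The comparisons that reuse the NG-KO libraries gave 0.61 (SE 0.12, edgeR adjusted p = 0.0771) in AG-KO against NG-KO mice and -0.60 (SE 0.12, edgeR adjusted p = 0.195) in NG-KO against Δ3102 mice. Neither passed in edgeR, although the ranges did not overlap. DESeq2 gave adjusted p values of 0.000846 and 0.00816 for these 2 comparisons, where it passed 2.38% and 0.449% of all tested genes. For AG-KO against NG-KO mice edgeR gave 0.0430 without AG-KO replicate 2, a setting under which 1.64% of all tested genes passed, against 0.111% with all libraries. The AG-KO comparison with WT mice, which reuses the WT libraries, gave -0.18 (SE 0.12, edgeR adjusted p = 0.518).

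Sums of markers of other cells are given beside these values. Red cells carry Tmod1, and the summed red cell markers (5 of 5 tested) ranged from 246 to 531 FPKM in NG-KO mice, from 167 to 434 FPKM in AG-KO mice, from 604 to 859 FPKM in Δ3102 mice and from 488 to 1125 FPKM in WT mice. The summed oligodendrocyte markers (4 of 4 tested) ranged from 119 to 189 FPKM in NG-KO mice, from 188 to 358 FPKM in AG-KO mice, from 173 to 205 FPKM in Δ3102 mice and from 203 to 466 FPKM in WT mice. The summed skeletal muscle markers (5 of 5 tested) ranged from 7.28 to 168 FPKM in NG-KO mice and from 4.04 to 197 FPKM in AG-KO mice. They ranged from 377 to 530 FPKM in Δ3102 mice and from 17.6 to 400 FPKM in WT mice. The summed astrocyte markers were 129 to 171 FPKM in NG-KO mice, 177 to 204 FPKM in AG-KO mice and 157 to 169 FPKM in Δ3102 mice. The part of any of these sums in the Tmod1 values was not tested.

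**Figure D3:**
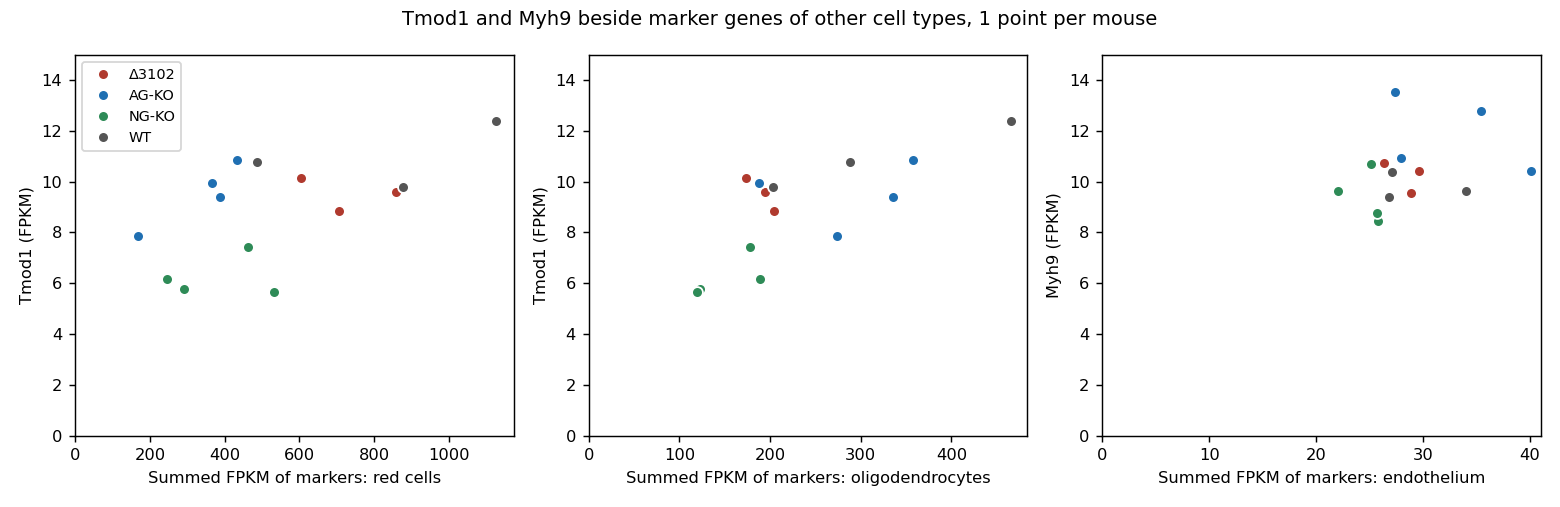
Tmod1 level (FPKM) against the summed FPKM of red cell markers and of oligodendrocyte markers, and Myh9 level against the summed FPKM of endothelial markers, with 1 point per mouse colored by genotype. AG-KO mice have red cell sums of 167 to 434 FPKM with 7.85 to 10.8 FPKM of Tmod1, and NG-KO mice have sums of 246 to 531 FPKM with 5.67 to 7.44 FPKM of Tmod1.

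Tmod2, the tropomodulin gene best known from brain, varied less between genotypes. It averaged 31.1 ± 1.81 FPKM in the 3 Δ3102 mice, 31.1 ± 2.28 FPKM in the 4 AG-KO mice, 28.6 ± 2.50 FPKM in the 4 NG-KO mice and 30.8 ± 1.03 FPKM in the 3 WT mice (mean ± SD). Its log2 fold change in AG-KO against NG-KO mice was 0.14 (SE 0.074, edgeR adjusted p = 0.425). The coding sequences of Tmod1 and Tmod2 matched at 69.1% of aligned bases.

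Tmod1 held 23.4% ± 0.685 of the summed FPKM of both tropomodulins in the 3 Δ3102 mice, 23.3% ± 1.77 in the 4 AG-KO mice, 18.0% ± 1.88 in the 4 NG-KO mice and 26.3% ± 2.55 in the 3 WT mice (mean ± SD). Between AG-KO and Δ3102 mice the share differed by -0.088 percentage points (two-sided exact permutation p = 0.914, and 0.914 adjusted over the 4 share comparisons). The smallest p that 4 against 3 mice allow was 0.0286.

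None of the 5 tested genes on either side of Tmod1 passed the test in NG-KO against WT mice. Igfbpl1 had a log2 fold change of -2.46 (SE 0.72, edgeR unadjusted p = 0.0047, adjusted p = 0.338), farther from 0 than that of Tmod1. Tstd2, which overlaps the end of Tmod1 on the opposite strand, had a log2 fold change of 0.014 (SE 0.21). The libraries were made with a strand-marking kit, but whether the counting used the strand is not given in the sources used here.

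Myo5a, the myosin Va gene, split the libraries within 3 of the 4 genotypes. It had 5.09, 5.30 and 14.9 FPKM in Δ3102 hippocampi, 18.8, 15.6, 5.68 and 6.00 FPKM in AG-KO hippocampi, 16.7, 18.3, 14.8 and 16.5 FPKM in NG-KO hippocampi, and 5.26, 13.5 and 18.0 FPKM in WT hippocampi. No library lay between 6.00 and 13.5 FPKM, and only the NG-KO mice were all on the higher side. The counts split in the same way, with 4230 to 5591 counts in the 5 lower libraries and 11963 to 16876 counts in the other 9. Summed sperm cell markers (3 of 3 tested) were 0.390, 0.623, 6.90, 21.8 and 1.22 FPKM in the lower libraries (Δ3102 replicates 1 and 2, AG-KO replicates 3 and 4 and WT replicate 1). In the others they were 108 FPKM in Δ3102 replicate 3, 21.7 and 31.0 FPKM in AG-KO mice, 68, 0.140, 34.8 and 26.6 FPKM in NG-KO mice and 98.3 and 109 FPKM in WT mice. The ranges of the lower and higher libraries overlapped, with AG-KO replicate 4 level with AG-KO replicate 1 and NG-KO replicate 2 the lowest of all, and the part of these markers in the Myo5a values was not tested. The SD of Myo5a within genotypes was 0.74 on the log2 scale, larger than in 99.2% of the 1000 tested genes nearest to it in level. In AG-KO against NG-KO mice its log2 fold change was -0.53 (SE 0.46, edgeR adjusted p = 0.650), and in NG-KO against Δ3102 mice it was 0.99 (SE 0.50, edgeR adjusted p = 0.823).

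The counts of members that passed the test over all genes were small in every tested comparison. In AG-KO against WT mice 0 of 10 members passed, against 0.0221% of all tested genes, while 1 member (Myh9) was at an unadjusted p under 0.05, against 14.4%, and DESeq2 passed 0, against 2.26%. The groups did not overlap for 1 member (Myh9), against 13.3% of all tested genes. In AG-KO against NG-KO mice 0 of 10 passed in edgeR, against 0.111% of all tested genes. There 3 members (Myh9, Myh14 and Tmod1) were at an unadjusted p under 0.05, against 14.1% of all tested genes, DESeq2 passed 2 (Myh9 and Tmod1), against 2.38%, and the groups did not overlap for 1 (Tmod1), against 6.77%. This comparison reuses the NG-KO libraries that chose Tmod1, and nothing is read from the pass or the lack of overlap of Tmod1 there.

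The comparisons with Δ3102 mice reuse the libraries that chose Myh10, and nothing is read from its pass there. In AG-KO against Δ3102 mice 1 of 10 members passed (Myh10), where 0.0277% of all tested genes did, and the groups did not overlap for 1 member, against 9.98%. In NG-KO against Δ3102 mice 1 of 10 passed (Myh10), where 0.0609% of all tested genes did, and the groups did not overlap for 3 members (Myh10, Myl6 and Tmod1), against 8.2%. That comparison also reuses the NG-KO libraries that chose Tmod1, and nothing is read from the lack of overlap of Myh10 or Tmod1 there. In the comparisons that chose the set, Myh10, Myl6 and Cfl1 did not overlap between Δ3102 and WT mice, against 11.5% of all tested genes, and Tmod1 did not overlap between NG-KO and WT mice, against 10.9%. The comparisons with WT mice share the 3 WT libraries.

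**Figure D4:**
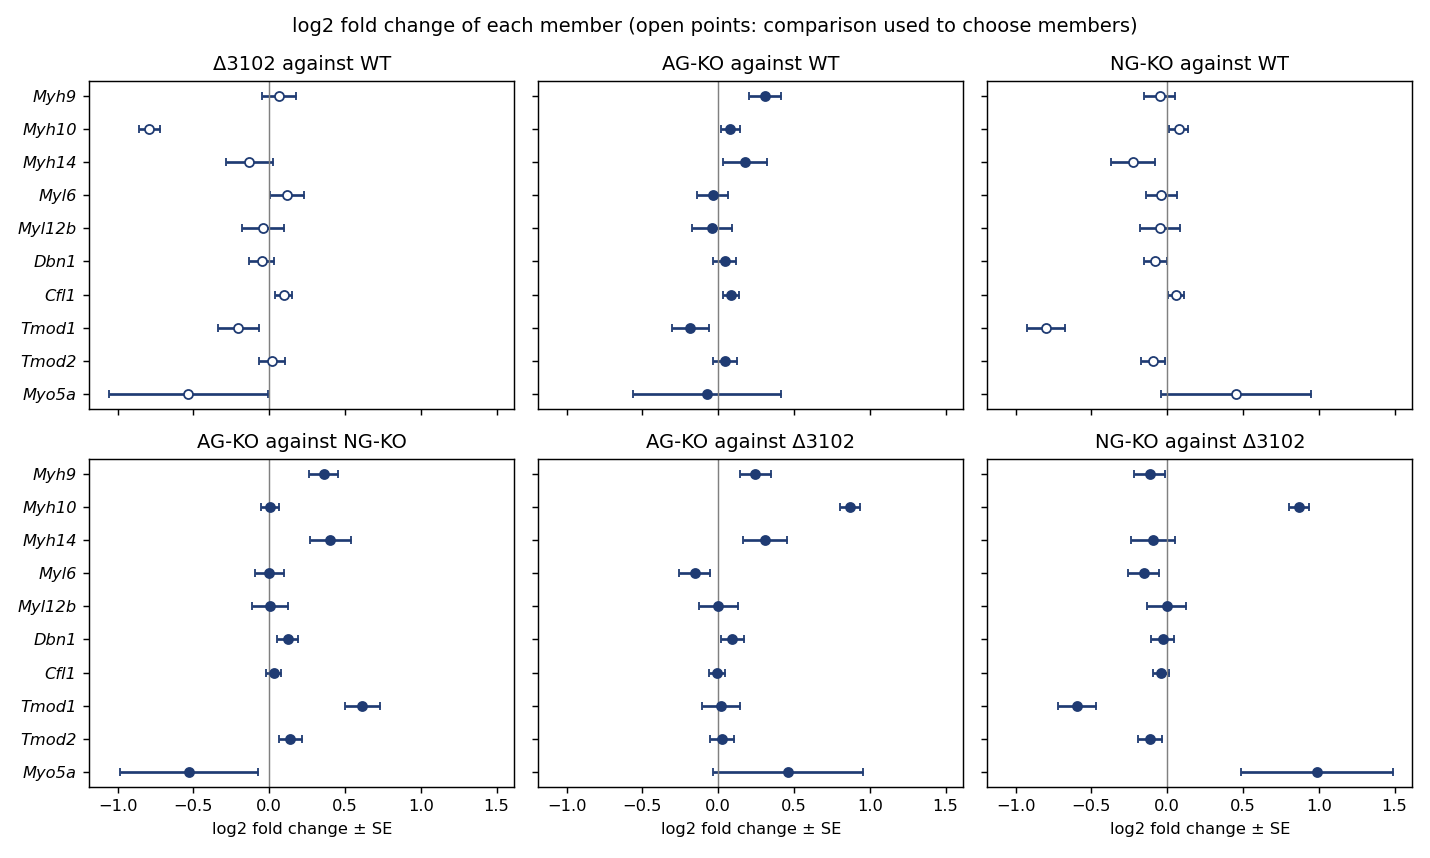
log2 fold change ± SE of each of the 10 members in the 6 comparisons of genotypes, from the edgeR fit of all 14 libraries, with open points in the comparisons that chose the set. Among the filled points, the values farthest from 0 with a narrow SE are Myh10 in AG-KO and NG-KO against Δ3102 mice, both 0.87, and Myo5a has SE values of 0.46 to 0.50. Both of these Myh10 points reuse the Δ3102 libraries by which Myh10 was chosen. In AG-KO against NG-KO mice, which share no library with that choice, Myh10 is at 0.0046. Filled Tmod1 points in comparisons with NG-KO mice likewise reuse libraries that chose Tmod1.

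The genes with profiles most like those of Myh10 and Tmod1 were ranked by Pearson's r of log2 CPM (counts scaled to library size) over the 14 libraries, as a description. For Myh10 they were Gper1 (r = 0.896), Gabpa (0.881), Prkar2b (0.869), Nmral1 (0.850) and Ndn (0.842). Gper1 is the gene deleted in Δ3102 mice, and Myh10 was chosen for its level in those same mice. For Tmod1 they were Frrs1l (r = 0.911), which encodes an AMPA receptor assembly protein, Rplp0 (0.9001), Hist1h2bc (0.898), Sh3glb1 (0.879) and Map7 (0.879). The 14 points share genotype, depth and library composition.

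Other genes of the actin and myosin pathways were read from 7 lists with 117 genes, of which 114 were tested. In edgeR, 0 of the 114 passed an adjusted p under 0.05 in the comparisons of Δ3102, AG-KO or NG-KO with WT mice and of AG-KO with NG-KO mice. At an unadjusted p under 0.05 there were 8 in Δ3102 against WT mice (7.02%, against 4.45% of all tested genes), 18 in AG-KO against WT mice (15.8%, against 14.4%), 12 in NG-KO against WT mice (10.5%, against 9.16%) and 23 in AG-KO against NG-KO mice (20.2%, against 14.1%). DESeq2 passed 2 in AG-KO against WT mice, Tpm1 (a tropomyosin) and Ssh1 (a cofilin phosphatase), where it passed 2.26% of all tested genes. It passed 4 in AG-KO against NG-KO mice, Coro1a, Myo1d, Limch1 and Shank1, where it passed 2.38% of all. It passed 0 in Δ3102 and in NG-KO against WT mice, where it passed 0.166% and 0.914% of all. Without AG-KO replicate 2, edgeR passed 2 list genes in AG-KO against WT mice, where 0.454% of all tested genes passed, and 3 in AG-KO against NG-KO mice, where 1.64% did. The genes were named after their values were seen.

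The lists differed in sign. Among the 20 spine actin scaffold genes, which hold postsynaptic proteins such as the Shank family, 17 had a positive log2 fold change in AG-KO against WT mice, with a median of 0.18 against -0.014 over all tested genes. The scaffolds did not stand apart there. The median was 0.19 for the unconventional myosins (11 of 16 positive) and 0.16 for the cofilin pathway (12 of 15 positive). It was 0.061 for the myosin II list, 0.060 for the actin monomer list and -0.091 for the tropomodulin list. Among the 20 genes of the Arp2/3 and WAVE complexes, which start branched actin filaments, 17 had a negative log2 fold change in AG-KO against WT mice, with a median of -0.15. Among the 18 other myosin II chains and regulators, 16 were positive in AG-KO against NG-KO mice, with a median of 0.11 against -0.0093 over all tested genes. None of these genes passed the edgeR test, and the lists were not tested as sets.

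**Figure D5:**
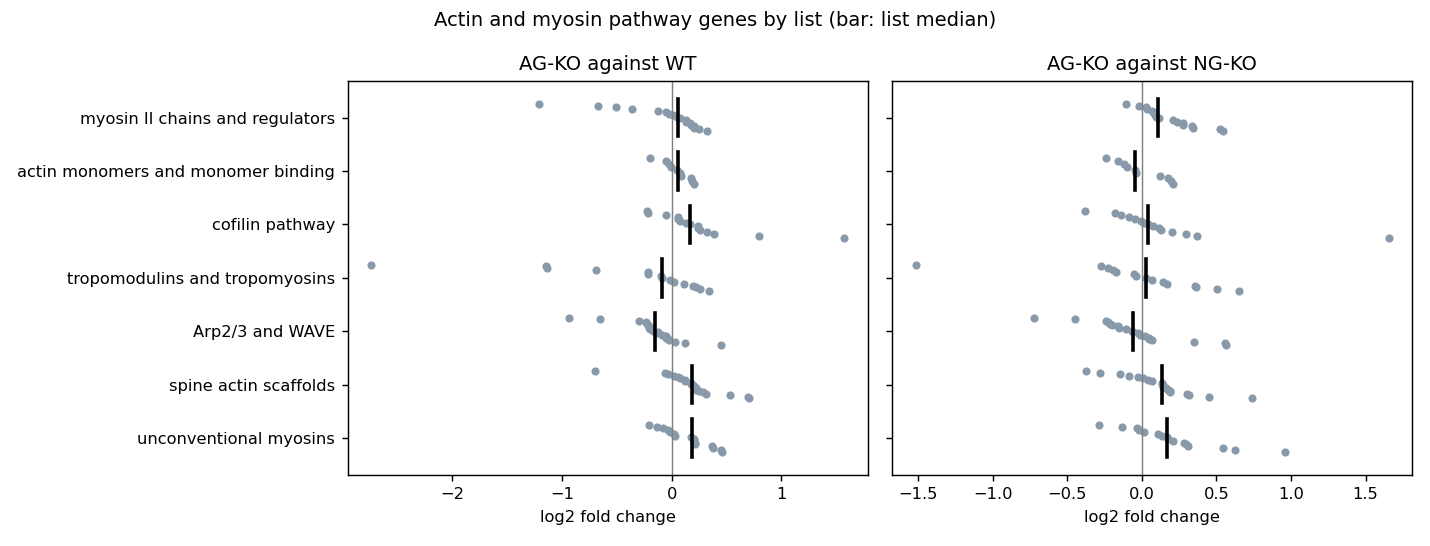
log2 fold change of each tested gene of the 7 actin and myosin lists in AG-KO against WT mice and in AG-KO against NG-KO mice, with 1 point per gene and a bar at the list median. In AG-KO against WT mice the median is 0.19 for the unconventional myosins, 0.18 for the spine actin scaffolds and -0.15 for the Arp2/3 and WAVE genes.

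The most abundant genes of the lists showed the level of this machinery. Tmsb4x, which encodes the actin monomer buffer thymosin beta 4, averaged 392 ± 23.0 FPKM in the 3 Δ3102 mice, 451 ± 263 FPKM in the 4 AG-KO mice, 398 ± 25.4 FPKM in the 4 NG-KO mice and 402 ± 19.4 FPKM in the 3 WT mice (mean ± SD), with the AG-KO mice spread from 216 to 685 FPKM. Actg1, which encodes cytoplasmic gamma actin, averaged 350 ± 54.5 FPKM in the 3 Δ3102 mice, 336 ± 47.3 FPKM in the 4 AG-KO mice, 401 ± 45.2 FPKM in the 4 NG-KO mice and 302 ± 45.7 FPKM in the 3 WT mice (mean ± SD). Ppp1r9b, which encodes the spine scaffold spinophilin, averaged 225 ± 16.7 FPKM in the 3 Δ3102 mice, 251 ± 22.5 FPKM in the 4 AG-KO mice, 225 ± 19.5 FPKM in the 4 NG-KO mice and 219 ± 7.58 FPKM in the 3 WT mice (mean ± SD). None of these genes passed the edgeR test in the 4 comparisons of the lists. The other top genes were Mprip and Cdc42bpb of the myosin II list, Dstn and Pak1 of the cofilin list, Capzb and Tpm1 of the tropomodulin list, Brk1 and Wasf1 of the Arp2/3 list, and Dynll2 and Dynll1 of the unconventional myosin list, with group means between 21.7 and 245 FPKM.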

How the data were processed

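Hippocampal poly(A) RNA was sequenced in pairs of reads from 14 mice, 1 library per mouse, and p-values measure the spread between mice. Per the submitters' processing notes and the study's methods, cutadapt 1.9 trimmed the reads, HISAT2 2.0.4 mapped them to GRCm38 and StringTie 1.3.4d assembled transcripts. UMI-tools, DESeq2 and edgeR are named there without a role. The deposited FPKM values come from the authors' StringTie run and have a floor of 0.0001. The deposited count values are whole numbers that the authors did not normalize, and the program that counted them is not given in the sources used here. Coordinates follow GENCODE vM21 on GRCm38.

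Groups follow the sample labels. Counts of all 14 libraries were fitted with edgeR 4.0.16 (TMM, quasi-likelihood, 1 mean per genotype) in R 4.3.3 for 18059 genes (FPKM of 0.5 or more in 3 or more libraries), which held 99.6% to 99.7% of the 44527024 to 62669865 counts of each library. Adjusted p is Benjamini-Hochberg over these genes, two-sided, with a threshold of 0.05, and SE is that of the log2 fold change. Shares were compared with exact permutation tests. Alternatives used DESeq2 1.42.0, limma 3.58.1 on log2(FPKM + 0.1) and log2(FPKM + 1), other filters, scaling, a replicate block, the 2 groups alone, the study's fold thresholds (over 2 or under 0.5, with an unadjusted P under 0.05) and leaving out each library. The procedure was tested on simulated data. No pair of the 91 pairs of libraries was identical.

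The members, gene lists and marker lists were chosen with earlier results of these data known. Genes named are the 10 members, the 2 most abundant genes of each list (1 is not reported here), list genes that passed the test (0 did), neighbours, and the 5 genes most like Myh10 and Tmod1. Coding sequences were aligned with Biotite 1.4.0, and figures were drawn with Matplotlib 3.10.9 in Python 3.11.15.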

Additional observations from a re-analysis of the deposited data

Results flagged for a closer look

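In groups of 4 mice, a value was singled out when its gap to the nearest other mouse divided by the range of the group exceeded Dixon's critical value. Of 30 such groups, 5 held an outlying value. The usual rate of about 1 in 20 holds for independent groups of normally distributed values. These groups are not independent, since shares were built from members that were also examined. Where the other mice lie at the floor, any higher value is outlying, so the 5 are not compared with that rate. Myl12b was outlying in NG-KO replicate 4 at 52.43 FPKM. Its second gene model was outlying in NG-KO replicate 4 at 41.14 FPKM and in AG-KO replicate 4 at 0.4579 FPKM, where the other mice of each group were at the floor. Cfl1 was outlying in NG-KO replicate 4 at 230.7 FPKM, against 216 to 218 FPKM in the other NG-KO mice. The Myh10 share of the heavy chain FPKM was outlying in AG-KO replicate 3 at 55.83%, and without it the difference between AG-KO and NG-KO mice remained negative.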

How the results depend on the processing

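The fold changes of Myh10 in Δ3102 against WT mice (-0.81 to -0.75) and of Tmod1 in NG-KO against WT mice (-0.89 to -0.70) moved by less than 1 SD under all 22 alternatives. These comparisons chose the 2 genes, so this is a description and lends them no support. Among the 22 are fits without a library of a genotype outside the comparison, which could hardly move the value. Members that passed numbered 0 in AG-KO against WT mice under all 24 alternatives. In AG-KO against NG-KO mice they numbered 2 with DESeq2 and 0 to 1 when a library was left out, the 1 being Tmod1 without AG-KO replicate 2. In AG-KO against Δ3102 mice they numbered 0 with only the 2 groups fitted (Myh10 adjusted p = 0.0510) and 0 under the study's thresholds. In NG-KO against Δ3102 mice they numbered 2 with DESeq2 and 0 under the study's thresholds. The comparisons with Δ3102 mice reuse libraries that chose Myh10, and those with NG-KO mice reuse libraries that chose Tmod1. List genes that passed numbered 3 (Δ3102) and 2 (NG-KO) against WT mice under the study's thresholds (S100a4 and Abi2 in both, Arpc5 in Δ3102), 2 in AG-KO against WT and 4 in AG-KO against NG-KO mice with DESeq2. The share of all tested genes that met the study's thresholds was not counted, so nothing is read from the passes under them. When a library was left out the list genes that passed numbered 0 to 1 in Δ3102 against WT mice (Ppp1r12c, without Δ3102 replicate 1), 0 to 2 in AG-KO against WT mice (Iqsec1 and Ssh1, without AG-KO replicate 2) and 0 to 3 in AG-KO against NG-KO mice (Myo9b, Add2 and Myo1d, without AG-KO replicate 2). Without Δ3102 replicate 1, 5 of all 18059 tested genes passed in Δ3102 against WT mice.

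Values near 0 changed sign. Myh10 in AG-KO against NG-KO mice was -0.0016 with no filter, -0.015 in limma with either pseudocount, and -0.040 to 0.041 when a library was left out. Tmod1 in AG-KO against Δ3102 mice was -0.011 and -0.0097 in limma with 0.1 and 1 added, and -0.032 to 0.11 when a library was left out. Myl12b in AG-KO against NG-KO mice was -0.00066 with no filter, -0.078 with both models summed, and -0.13 to 0.068 when a library was left out. The Tmod1 share in AG-KO against Δ3102 mice differed by -0.71 to 0.69 percentage points, and the Myh10 share in AG-KO against NG-KO mice by -7.23 to -5.23, when a library was left out. The causes were not tested.

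The labels do not say that replicate numbers pair mice. Same-numbered mice deviated from their group means with r of -0.287 to 0.313, and in no comparison was every pair above 0.1. With the replicate number as a block no call of a member changed in the tested comparisons. The counts that passed stayed at 0 members in AG-KO against NG-KO and AG-KO against WT mice and at 1 in AG-KO and NG-KO against Δ3102 mice. Over all tested genes fewer passed with the block. The counts were 9 rather than 20 in AG-KO against NG-KO mice and 1 rather than 4 in AG-KO against WT mice. They were 2 rather than 5 in AG-KO and 6 rather than 11 in NG-KO against Δ3102 mice. The members' counts per library ran from 1214 (Tmod1) to 43805 (Cfl1), and counting error was not separated from the spread between mice.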
